A study of Mus musculus with 8 samples.

Results

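Zinc finger genes were the hosts of 142 of the 6315 circular RNAs (circRNAs) listed for these mouse kidneys, and of 66 of the 2842 host genes. Members were taken by gene symbol alone: Zfp followed by a digit, Zbtb, Zkscan, Zscan, Zc3h, Zmym, Zmiz, Zeb, Zfhx, Zhx, Zmat and Zcchc genes, together with Zfx and Zfr. The rule itself uses no measured value, but it was chosen with earlier results of these data known. No Zmat gene had a listed circRNA. The kidneys came from C57BL/6L mice (strain as spelled in the labels) aged 8 to 10 weeks, and total RNA was extracted with Trizol. There were 3 libraries of kidneys with unilateral ureteral obstruction (UUO), in which the tied ureter blocks urine outflow, 2 of a group called acute-chronic (AC) and 3 controls. UUO and AC kidneys were harvested at day 5, and no day is given with the control samples. The series' design text names ischaemia/reperfusion where the samples are labelled AC, so what that procedure was beyond these words is not known here. The design text calls the controls sham-operated, while their titles call them WT. No label says that each library was a separate animal, so the p-values given here rest on variation among libraries that could be technical replicates.

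A circRNA forms when the splicing machinery joins the end of a downstream exon back to the start of an upstream exon of the same transcript, which leaves a closed loop without cap or poly(A) tail. Zinc finger proteins fold small loops of protein around zinc ions. The C2H2 type (most Zfp genes, and the Zbtb, Zkscan and Zscan genes) mostly binds DNA, often with a KRAB, BTB or SCAN domain that recruits partners such as co-repressors. The CCCH fingers of Zc3h proteins and the CCHC knuckles of Zcchc proteins mostly contact RNA and serve in its decay, tailing and surveillance. Zeb, Zfhx and Zhx proteins combine zinc fingers with homeodomains, and Zeb1 and Zeb2 are best known as repressors of epithelial genes in the change from epithelial to mesenchymal state. The counts describe the circular products only; the linear transcripts of these hosts were not analysed here. In whole kidney tissue, fewer cells of a type and less of an RNA per cell cannot be told apart.

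Members held a small share of all circRNA counts. Library totals ran between 40865 and 65145 circRNA counts. Of these, members made up 2.77%, 2.54% and 2.87% in UUO, 2.91% and 2.56% in AC and 2.92%, 2.94% and 2.94% in control. The exact binomial 95% intervals of single libraries, which cover counting error only, spanned 2.41% to 3.08% in all. The share averaged 2.726% ± 0.167 in UUO (SD, n = 3), 2.735% ± 0.248 in AC (SD, n = 2) and 2.935% ± 0.013 in control (SD, n = 3). Each UUO and AC library lay below the lowest control library, but the intervals of the highest UUO and AC libraries overlapped with those of control, and the difference was not tested. Between 89 and 95 members had a count above 0 in a UUO library, against 83 and 84 in AC and 82 to 90 in control.

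Most members were rare. The median member had 20.5 counts over the 8 libraries together, against 14 for all listed circRNAs, and 52 members had 10 counts or fewer. A single count was worth between 18.9 and 29.2 CPM, the unit used for levels below, in which counts are scaled to the normalised size of each library. Of the 142 members, 37 (26.1%) were above 0 in every library, against 23.0% of all circRNAs. Another 19 members (13.4%) were seen in 1 library only, against 19.8% of all. The filter on low counts left 42 members from 28 hosts for testing, which was 29.6% of the members, against 23.3% of all circRNAs. These 42 held 87.5% of the member counts. The other 100 had at most 52 counts each, with a median of 9.5, and are described by their counts alone. Since a circRNA that is high in 1 group passes the filter more easily, the tested members are not a sample of all 142.

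A few circles carried most of the signal. The 142 members had 11621 counts in all, of which 1 circle of Zfp827 (mmu_circ_0001698) held 20.02%, the top 3 circles 38.1% and the top 10 circles 61.3%. By host, Zfp827 had 30.0% of the counts, Zfp148 14.1% and Zfp426 6.62%. The human orthologue of Zfp827 recruits a chromatin remodelling complex to telomeres, Zfp148 (ZBP-89) binds GC-rich promoters, and Zfp426 is a KRAB zinc finger gene. Of the 66 hosts, 37 had 1 listed circRNA, 13 had 2, and 16 had 3 or more. Zfp827 had 13, Zmym4 9, Zfp148 7 and Zfhx3 6. The mean was 2.15 circRNAs per host, against 2.22 over all hosts of the table.

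The hosts had fewer exons than the average host. The longest source transcript of a member host had a median of 9 exons, with a range of 4 to 31 over 65 hosts, against a median of 15 over 2704 hosts of the whole table; transcripts were looked up in GENCODE M21. The Zfp827 transcript had 15 exons, that of Zmym4 30, that of Zfp148 9 and those of Zkscan1, Zfx and Zfp68 6 each. Experimental evidence was listed beside 37 members (26.1%), against 17.2% of all circRNAs. In the same annotation, 29 of 65 member hosts were overlapped by another gene, and the share over all hosts was not computed. The sources used here do not state whether counting used strand, so reads of overlapping genes may not be separable for these hosts.

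**Figure D1:**
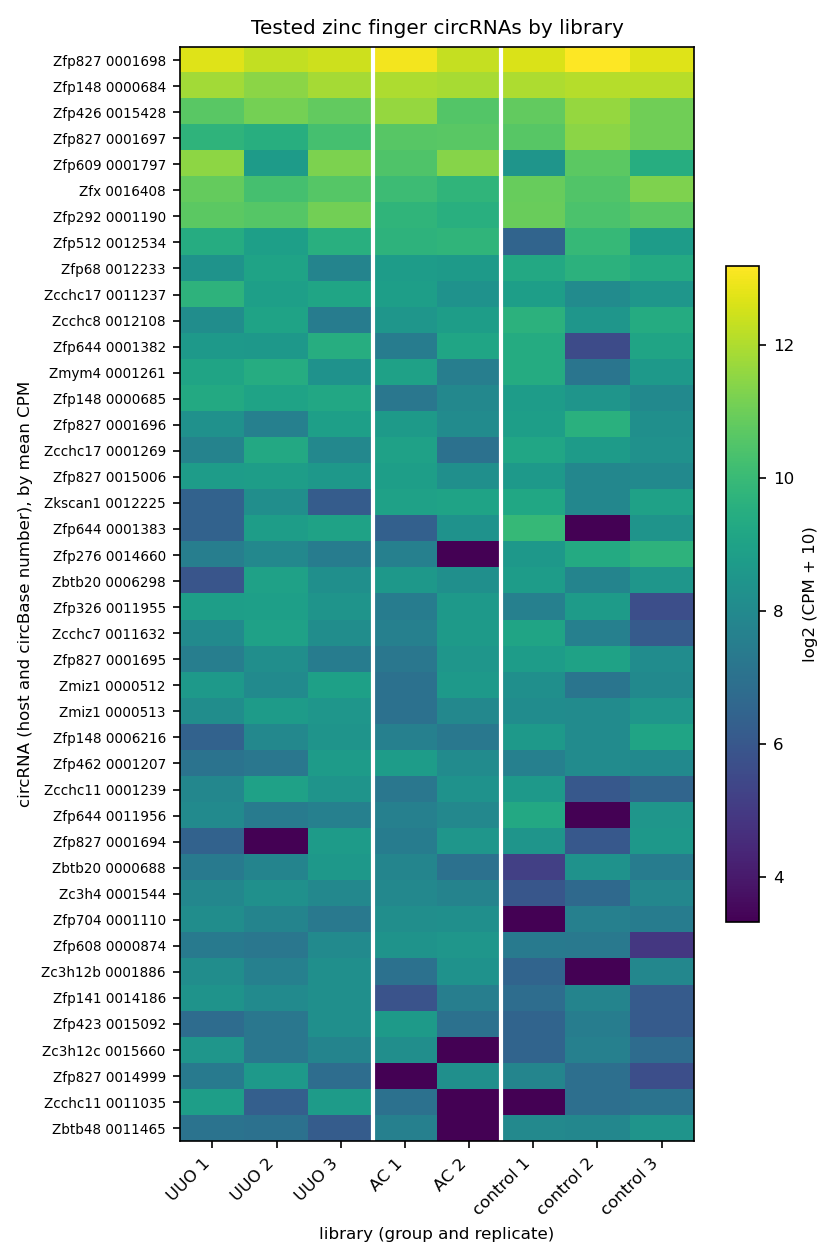
Levels of the 42 tested zinc finger circRNAs (rows, named by host and the digits of the circBase identifier, ordered by mean CPM) in the 8 libraries (columns, grouped as UUO, AC and control), as the log2 of CPM plus a pseudocount of 10. The upper rows, led by mmu_circ_0001698 of Zfp827 and mmu_circ_0000684 of Zfp148, were bright in every library, while the 3 Zfp644 circles were dark in control replicate 2.

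The 10 members with the highest mean level came from 9 hosts, and 9 of them had no call in any comparison by edgeR's test. The highest, mmu_circ_0001698 of Zfp827, had 261, 214 and 267 counts in UUO, 352 and 174 in AC and 238, 495 and 325 in control. The circle mmu_circ_0000684 of Zfp148 came next, with 142, 123 and 175 counts in UUO, 172 and 130 in AC and 150, 230 and 219 in control. For Zfp426, mmu_circ_0015428 had 64, 96 and 85 counts in UUO, 133 and 51 in AC and 67, 166 and 101 in control. Groups overlapped in counts for all 3, and control replicate 2 was the highest library of each. In CPM, the UUO and control libraries of the Zfp148 circle did not overlap, with a log2 difference of -0.34 ± 0.19 (SE; adjusted p = 0.415, edgeR). The Zfp827 circle averaged 5742 ± 822 CPM in UUO (SD, n = 3), 6684 ± 2275 CPM in AC (SD, n = 2) and 7463 ± 1639 CPM in control (SD, n = 3). The Zfp148 circle was the member with the smallest spread between replicates, with a biological coefficient of variation of 0.177, against a median of 0.456 for the tested members and 0.422 for all tested circRNAs.

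Obstructed kidneys had 1 zinc finger circRNA that was lower than in control and none that was higher. The lower one was mmu_circ_0001697 of Zfp827, the second most abundant circle of that gene. It had 33, 31 and 58 counts in UUO, 66 and 55 in AC and 59, 151 and 103 in control. All 3 UUO libraries lay below all 3 control libraries, although the highest UUO library was only 1 count below the lowest control library before scaling. Its level averaged 926 ± 259 CPM in UUO (SD, n = 3), against 2183 ± 642 CPM in control (SD, n = 3). The log2 fold change was -1.23 ± 0.30 (SE), a level 2.35-fold lower, with an adjusted p = 0.0278 in edgeR's quasi-likelihood test with Benjamini-Hochberg adjustment over all 1471 circRNAs tested. The call depended on single libraries: the adjusted p became 0.104, 0.135 and 0.0536 without UUO replicate 1, 2 and 3, and 0.0752 and 0.0722 without control replicate 2 and 3. In AC the circle averaged 1580 ± 35.0 CPM (SD, n = 2), a log2 difference from control of -0.47 ± 0.33 (SE) that did not pass (adjusted p = 0.595, edgeR).

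The count of 1 lower circle among 42 is to be read against the whole table. Of all 1471 tested circRNAs, 4.35% passed in UUO against control, 1.5% as lower and 2.86% as higher. That split depends on scaling, since 11 of 37 calls were higher with the authors' deposited constants as library sizes, against 42 of 64 here. At an unadjusted p under 0.05 there were 4 members (9.52%), against 15.5% of all tested circRNAs. The log2 fold change was positive for 23 members (54.8%) and negative for 19, against 50.6% positive overall. Its median was 0.26 over the members, against 0.02 over all tested circRNAs, and single members ran between -1.66 and 1.91. The members' median changed sign without UUO replicate 3 (-0.0829), without control replicate 2 (-0.0133) and with a stricter filter (-0.28). A change of at least 2-fold in either direction was estimated for 9 members (21.4%), against 23.2% of all. The libraries of UUO and control did not overlap in CPM for 9 members (21.4%), against 24.3% of all tested circRNAs. The standard errors of the 42 log2 fold changes had a median of 0.62 and reached 1.15.

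After the Zfp827 circle, 4 members had the lowest p among negative fold changes in UUO, and none of them passed. Zkscan1, a KRAB and SCAN zinc finger gene whose circle is well known from human liver, had 3, 12 and 3 counts of mmu_circ_0012225 in UUO, 21 and 18 in AC and 22, 12 and 24 in control. UUO replicate 1 and 3 were low, and UUO replicate 2 equalled control replicate 2 in counts. The log2 fold change was -1.61 ± 0.62 (SE; adjusted p = 0.174, edgeR) in UUO and 0.24 ± 0.62 (SE; adjusted p = 0.908, edgeR) in AC. Zfp276, a C2H2 gene, had 7, 10 and 8 counts of mmu_circ_0014660 in UUO, against 14, 34 and 40 in control, with no overlap and a log2 change of -1.66 ± 0.64 (SE; adjusted p = 0.174, edgeR). Zfp68 had 13, 22 and 10 counts of mmu_circ_0012233 in UUO, against 23, 43 and 31 in control. Those libraries did not overlap either, and the log2 fold change was -0.97 ± 0.41 (SE; adjusted p = 0.236, edgeR). For Zcchc8, a scaffold of the nuclear exosome targeting complex, mmu_circ_0012108 had 11, 22 and 8 counts in UUO, against 30, 19 and 32 in control, with overlap and an adjusted p = 0.395 (edgeR).

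The 5 members with the lowest p among positive fold changes in UUO did not pass either. Zfp609 is the orthologue of human ZNF609, whose circle has been studied in muscle cells. Its mmu_circ_0001797 had 114, 18 and 114 counts in UUO, 60 and 91 in AC and 13, 87 and 34 in control. UUO replicate 2 lay between control replicate 1 and 3, and control replicate 2 lay above AC replicate 1, so UUO and AC both overlapped with control. The log2 fold change was 1.05 ± 0.55 (SE; adjusted p = 0.391, edgeR) in UUO and 1.14 ± 0.61 (SE; adjusted p = 0.434, edgeR) in AC. Of Zcchc17, which encodes a nucleolar CCHC protein, mmu_circ_0011237 had 32, 20 and 26 counts in UUO, against 17, 14 and 17 in control, without overlap and with an adjusted p = 0.401 (edgeR). The remaining 3 were mmu_circ_0000685 of Zfp148, mmu_circ_0011035 of Zcchc11, the terminal uridylyltransferase TUT4, and mmu_circ_0011955 of Zfp326, a subunit of a complex that links transcription to splicing. The Zcchc11 circle had 18, 3 and 20 counts in UUO, against 0, 6 and 6 in control, so UUO replicate 2 fell within the control range. The Zfp326 circle had 18, 20 and 16 counts in UUO, against 7, 22 and 2 in control. Their log2 fold changes were 1.91 ± 1.15 and 0.94 ± 0.65 (SE), with adjusted p = 0.458 and 0.522 (edgeR).

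**Figure D2:**
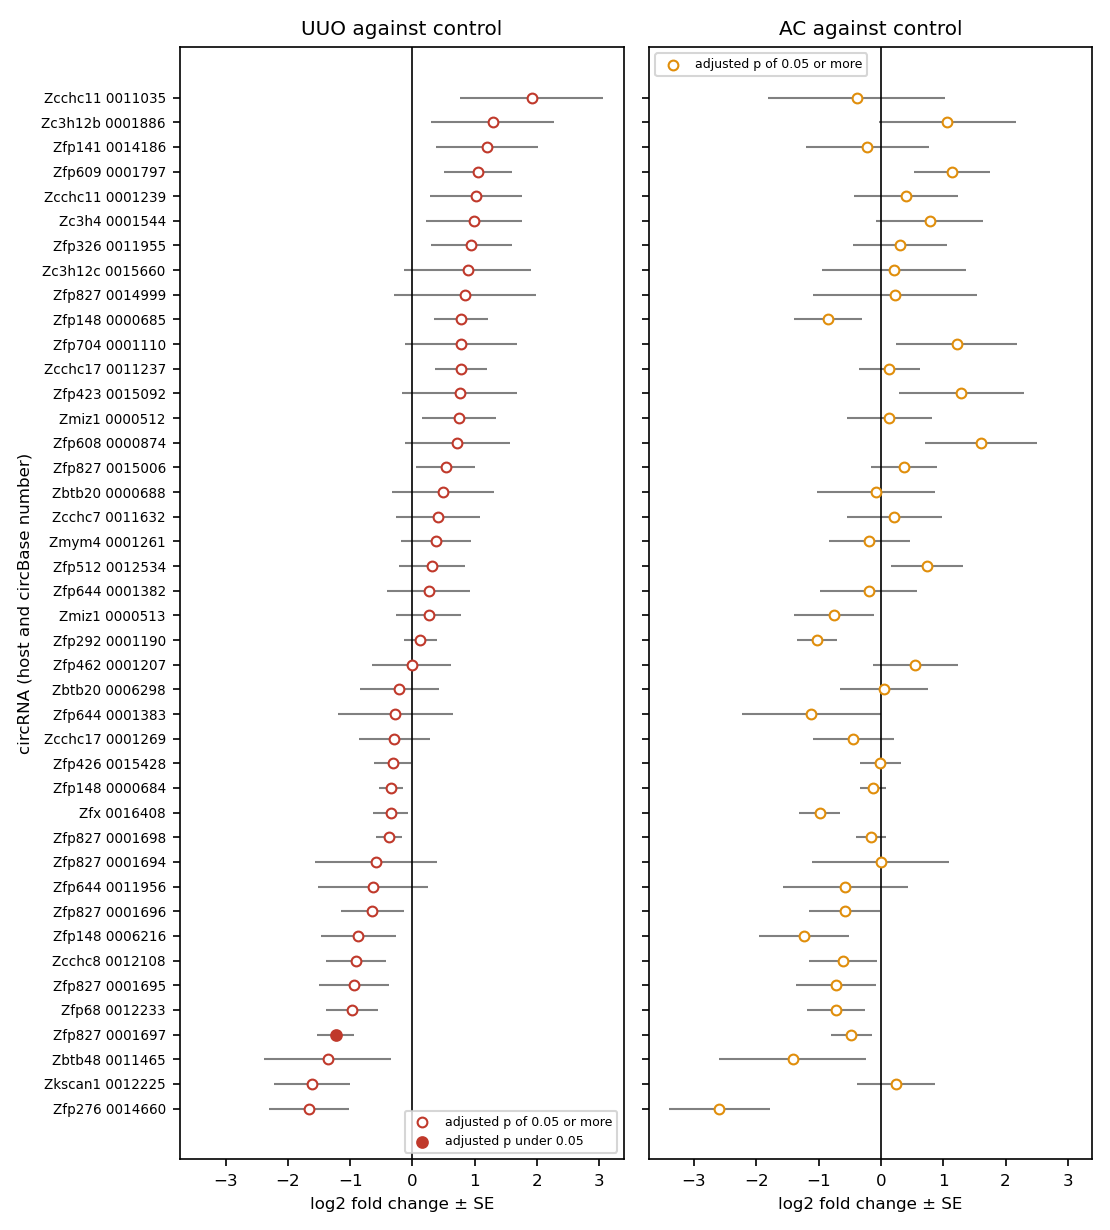
Log2 fold changes with their standard errors (horizontal axis) of the 42 tested zinc finger circRNAs (vertical axis), for UUO against control on the left and AC against control on the right; filled points had an adjusted p under 0.05 in edgeR. Only mmu_circ_0001697 of Zfp827 in UUO is filled, and both panels are measured against the same 3 control libraries.

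In AC kidneys no zinc finger circRNA passed the test against control. Of all tested circRNAs 3.33% did, 1.43% as lower and 1.9% as higher (28 of 49 calls higher, against 7 of 29 with the deposited constants). At an unadjusted p under 0.05 there were 3 members (7.14%), against 14.1% of all. DESeq2 called 2 of the 42 members on the same counts, against 70 of all 1471 circRNAs in either direction. The 2 were the circles of Zfp292 and Zfp276 described below, both lower. Fold changes were positive for 18 members (42.9%) and negative for 24, against 49.4% positive overall. Their median was -0.10 on the log2 scale, against -0.02 over all tested circRNAs, with a range of -2.59 to 1.61. Without control replicate 1 the members' median was 0.225. AC and control libraries did not overlap in CPM for 10 members (23.8%), against 30.7% of all, and 10 members (23.8%) differed by at least 2-fold, against 25.9%. Since UUO and AC were set against the same 3 controls, a low or high control library moves both estimates.

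The lowest p among negative fold changes in AC belonged to Zfp276, Zfp292, Zfx, Zfp148 and Zfp68. The Zfp276 circle mmu_circ_0014660 had 8 and 0 counts in AC, against 14, 34 and 40 in control. Both AC libraries lay below all controls, and AC replicate 2 had no count at all. Its log2 fold change was -2.59 ± 0.81 (SE; adjusted p = 0.114, edgeR; 0.0179 in DESeq2). That estimate rested on single AC libraries: it was -1.72 without AC replicate 2 (adjusted p = 0.382, edgeR) and -7.77 without AC replicate 1 (adjusted p = 0.0281, edgeR), where the only AC library left had 0 counts and the fitted size has no fixed scale. Zfp292 is the mouse orthologue of ZNF292, whose circle was described in human endothelial cells under hypoxia. Its only circle, mmu_circ_0001190, had 37 and 25 counts in AC, against 73, 71 and 79 in control. Its level averaged 801 ± 101 CPM in AC (SD, n = 2), against 1638 ± 300 CPM in control (SD, n = 3), without overlap. The log2 fold change was -1.02 ± 0.32 (SE; adjusted p = 0.120, edgeR; 0.0432 in DESeq2). Zfx, an X-linked transcription factor needed for self-renewal of mouse stem cells, had 46 and 30 counts of mmu_circ_0016408 in AC, against 72, 77 and 119 in control. These did not overlap either, and the log2 fold change was -0.98 ± 0.33 (SE; adjusted p = 0.150, edgeR). For mmu_circ_0006216 of Zfp148, with 8 and 5 counts in AC, against 15, 14 and 26 in control, the adjusted p was 0.499 (edgeR). For the Zfp68 circle, with 18 and 14 counts in AC and the control counts given above, it was 0.566 (edgeR).

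On the positive side in AC, after Zfp609, came Zfp608, Zfp423, Zfp512 and Zfp704, all with adjusted p above 0.4 in edgeR. Zfp608, the closest relative of Zfp609, had 14 and 12 counts of mmu_circ_0000874 in AC, against 6, 8 and 1 in control, without overlap and with a log2 fold change of 1.61 ± 0.90 (SE). Zfp423, a cofactor of Smad signalling, had 17 and 4 counts of mmu_circ_0015092 in AC, against 3, 9 and 3 in control. Zfp512 had 35 and 30 counts of mmu_circ_0012534 in AC, against 3, 51 and 21 in control, and the controls spread widely on both sides. Zfp704 had 12 and 10 counts of mmu_circ_0001110 in AC, against 0, 10 and 8 in control. The lower AC count of Zfp704 equalled the highest control count, while in CPM the AC and control libraries did not overlap.

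**Figure D3:**
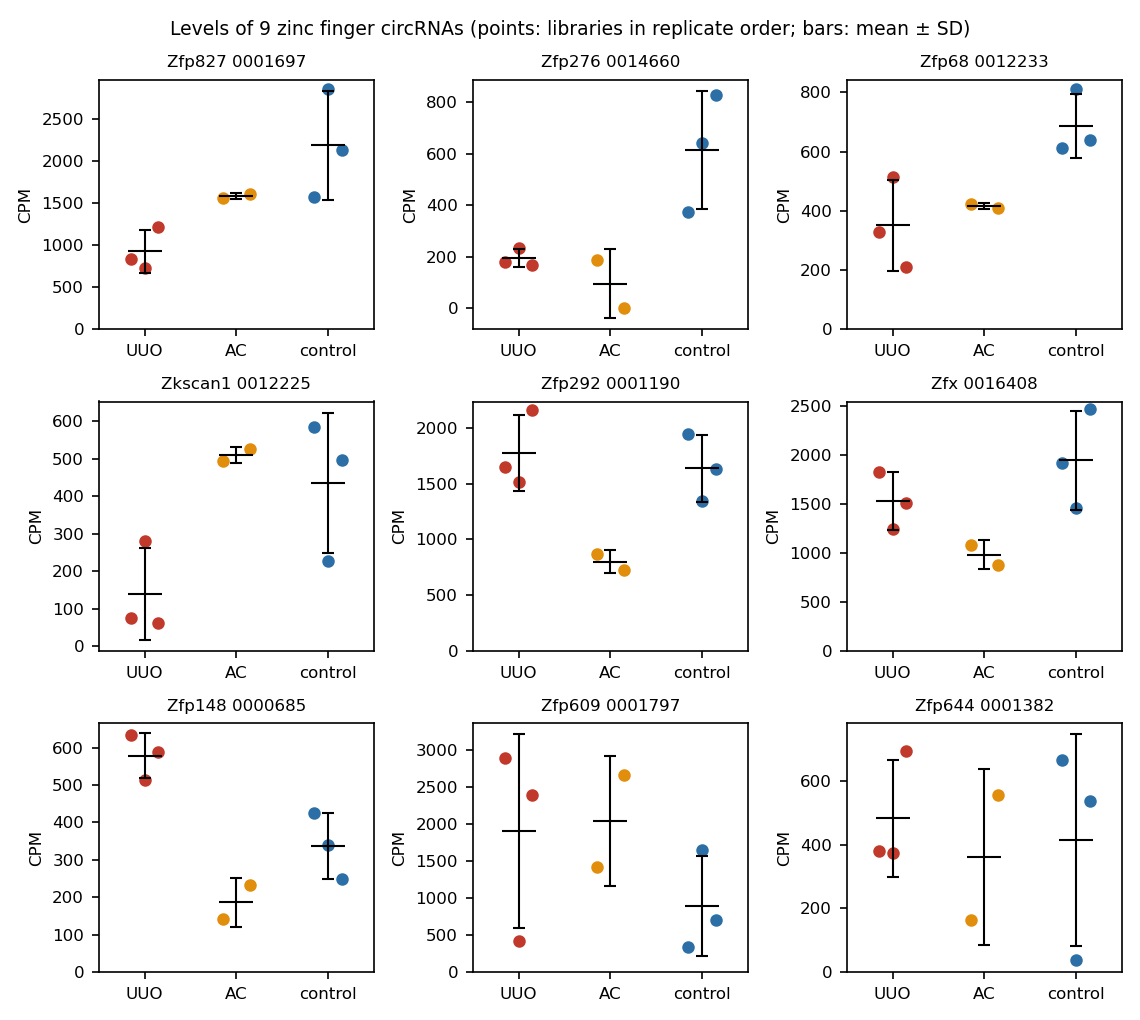
Levels in CPM (vertical axes, linear) of 9 zinc finger circRNAs in UUO, AC and control; points are libraries in replicate order from left to right, and bars show the mean ± SD (n = 3, 2 and 3). The UUO points of mmu_circ_0001697 of Zfp827 all lie below its control points, and the 2 AC points of mmu_circ_0001190 of Zfp292 lie below all of its UUO and control points.

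No zinc finger circRNA differed between UUO and AC past the threshold, and none of the 1471 tested circRNAs did (0%, edgeR). At an unadjusted p under 0.05 there were 4 members (9.52%), against 5.57% of all. The lowest p belonged to Zfp292, with 65, 65 and 103 counts in UUO and 37 and 25 in AC. Its level was 1777 ± 341 CPM in UUO (SD, n = 3), against 801 ± 101 CPM in AC (SD, n = 2), a log2 difference of 1.15 ± 0.32 (SE; adjusted p = 0.582, edgeR), and the libraries did not overlap. The circle mmu_circ_0000685 of Zfp148 had 25, 22 and 28 counts in UUO, 6 and 8 in AC and 16, 18 and 12 in control. All UUO libraries were above, and both AC libraries below, every control library. The log2 difference was 1.63 ± 0.54 (SE; adjusted p = 0.816, edgeR) between UUO and AC, 0.78 ± 0.44 (SE; adjusted p = 0.423, edgeR) between UUO and control and -0.85 ± 0.55 (SE; adjusted p = 0.566, edgeR) between AC and control. Lower in UUO than in AC, at the same adjusted p = 0.816 (edgeR), were the Zkscan1 circle, by a log2 difference of -1.85 ± 0.67 (SE), and mmu_circ_0001697 of Zfp827, by -0.76 ± 0.33 (SE). UUO and AC libraries did not overlap in CPM for 12 members (28.6%), against 24.3% of all tested circRNAs, and the difference was positive for 24 members (57.1%), against 53.0%.

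For both injuries together, the mean of the UUO and AC coefficients of the fit was set against control. The 2 injury groups thus weighed equally, whatever their number of libraries. In this comparison 1 member passed, against 5.23% of all tested circRNAs, with 2.45% lower and 2.79% higher (41 of 77 calls higher, against 17 of 93 with the deposited constants). This was the Zfp276 circle, with 4.37-fold lower levels and a log2 change of -2.13 ± 0.58 (SE; adjusted p = 0.0408, edgeR). It averaged 193 ± 35.4 CPM in UUO (SD, n = 3), 94.2 ± 133 CPM in AC (SD, n = 2) and 614 ± 229 CPM in control (SD, n = 3). The highest of the 5 injured libraries held 10 counts and the lowest control library 14. The call was lost without UUO replicate 1, 2 or 3, AC replicate 2, or control replicate 2 or 3, with adjusted p between 0.0758 and 0.185 (edgeR). Without AC replicate 1 it held in edgeR, at a log2 change of -4.74. Limma-voom gave an adjusted p of 0.113 and a stricter filter 0.0596. In the annotation Fanca and Vps9d1 overlap Zfp276 on the opposite strand and Gm20388 on the same strand, so reads counted here may not all be of Zfp276. The next member was mmu_circ_0001697 of Zfp827, with a log2 change of -0.85 ± 0.26 (SE; adjusted p = 0.0610, edgeR). It passed in DESeq2 (adjusted p = 0.0209), in limma-voom (0.0374), and in edgeR without a filter (0.0428), with the deposited constants (0.0291) and without control replicate 1 (0.0366). At an unadjusted p under 0.05 there were 5 members (11.9%), against 17.3% of all, and 21 of 42 fold changes (50.0%) were positive, against 48.7%.

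Summing the circles of each host gave 35 tested hosts of 1186. In UUO against control none passed, against 6.49% of all hosts, and 8 had an unadjusted p under 0.05, against 19.5% of all hosts. DESeq2 and limma-voom each called 1, Zfp827. Zfp827 had 344, 319 and 413 summed counts in UUO, 479 and 303 in AC and 384, 747 and 502 in control. Unscaled counts of UUO and control overlapped. In CPM all 3 UUO libraries, at 6504 to 7886, lay below the controls, at 9213 to 13080, and the log2 fold change was -0.54 ± 0.16 (SE; adjusted p = 0.0519, edgeR; 0.0483 in DESeq2 and 0.0277 in limma-voom). Its adjusted p became 0.0325 (edgeR) without control replicate 1. Zkscan1 had 3, 12 and 3 summed counts in UUO, 23 and 18 in AC and 24, 17 and 24 in control, with every UUO library below every other. Its log2 fold change in UUO was -1.82 ± 0.59 (SE; adjusted p = 0.0716, edgeR), and the adjusted p was 0.033 without UUO replicate 2 and 0.0475 without control replicate 2. Zcchc11 had 27, 26 and 43 counts in UUO, 13 and 11 in AC and 16, 12 and 10 in control. Every UUO library was above every other library, with a log2 change of 1.32 ± 0.45 (SE; adjusted p = 0.0852, edgeR). Zfp532, whose human orthologue is part of a chromatin reader complex, had 18, 34 and 20 counts in UUO, 8 and 7 in AC and 9, 5 and 10 in control. It too was highest in the 3 UUO libraries, with a log2 change of 1.58 ± 0.56 (SE; adjusted p = 0.104, edgeR). None of its 4 circles passed the filter singly.

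In AC against control no host passed, against 3.46% of all hosts, and 5 had an unadjusted p under 0.05, against 15% of all; DESeq2 and limma-voom called none. The lowest p values were those of Zfp276 (adjusted p = 0.0876, edgeR; 0.0204 without AC replicate 1) and Zfp292 (adjusted p = 0.0973, edgeR), each of which has 1 listed circle and therefore the counts given above. Zfr, which encodes a zinc finger RNA-binding protein involved in alternative splicing, had 2 and 1 summed counts in AC, 9, 5 and 5 in UUO and 11, 17 and 12 in control. Both AC libraries were below every other library. Relative to the TMM library sizes of the host test, the 3 counts of AC were 7.53-fold lower than the 40 of control. The exact 95% interval was 2.40 to 38.1 for counting error alone. Its adjusted p was 0.197 (edgeR). Between UUO and AC no host passed (0% of all hosts), and 4 had an unadjusted p under 0.05, against 5.99% of all. With both injuries together 1 host passed, Zfp276, against 7.34% of all, with a log2 change of -2.17 ± 0.57 (SE; adjusted p = 0.0230, edgeR), and 7 had an unadjusted p under 0.05, against 20.3% of all. That call did not hold without UUO replicate 3 (adjusted p = 0.0588), AC replicate 2 (0.0618) or control replicate 3 (0.154), nor in limma-voom (0.0869).

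The circles of 1 host could be compared with each other for 21 members of 7 hosts. No member passed the test for a changed share of the host's circRNA counts in UUO (0 of 723 circRNAs tested in all passed, 0%) or in AC (2 of 723 in all, 0.277%). This was edgeR's test of differential usage with Benjamini-Hochberg adjustment, and not passing does not show that shares were equal. At an unadjusted p under 0.05 there was 1 of the 21 members in UUO and 0 in AC, and the share of all 723 at that level was not computed. For Zfp827, mmu_circ_0001697 made up 11.1% ± 2.51 of the counts in UUO (SD, n = 3), 16% ± 3.11 in AC (SD, n = 2) and 18.7% ± 2.86 in control (SD, n = 3). The UUO libraries reached at most 14.0%, against at least 15.4% in control. The dominant mmu_circ_0001698 stood at 69.2% ± 5.94 in UUO, 65.5% ± 11.4 in AC and 64.3% ± 2.17 in control. For Zfp148, mmu_circ_0000685 made up 13.4% ± 1.21 in UUO, 4.18% ± 1.79 in AC and 6.58% ± 2.07 in control. Its UUO libraries, at 12.1% or more, lay above all others, the highest of which was 8.60%. Neither share passed the test in UUO (adjusted p = 0.999 for both, edgeR). Of the other 5 tested Zfp827 circles, 3 had negative and 2 positive fold changes in UUO, between -0.94 and 0.84 on the log2 scale, and none passed. Circles of 1 host may share exons, and the sources used here do not say how shared reads were counted.

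**Figure D4:**
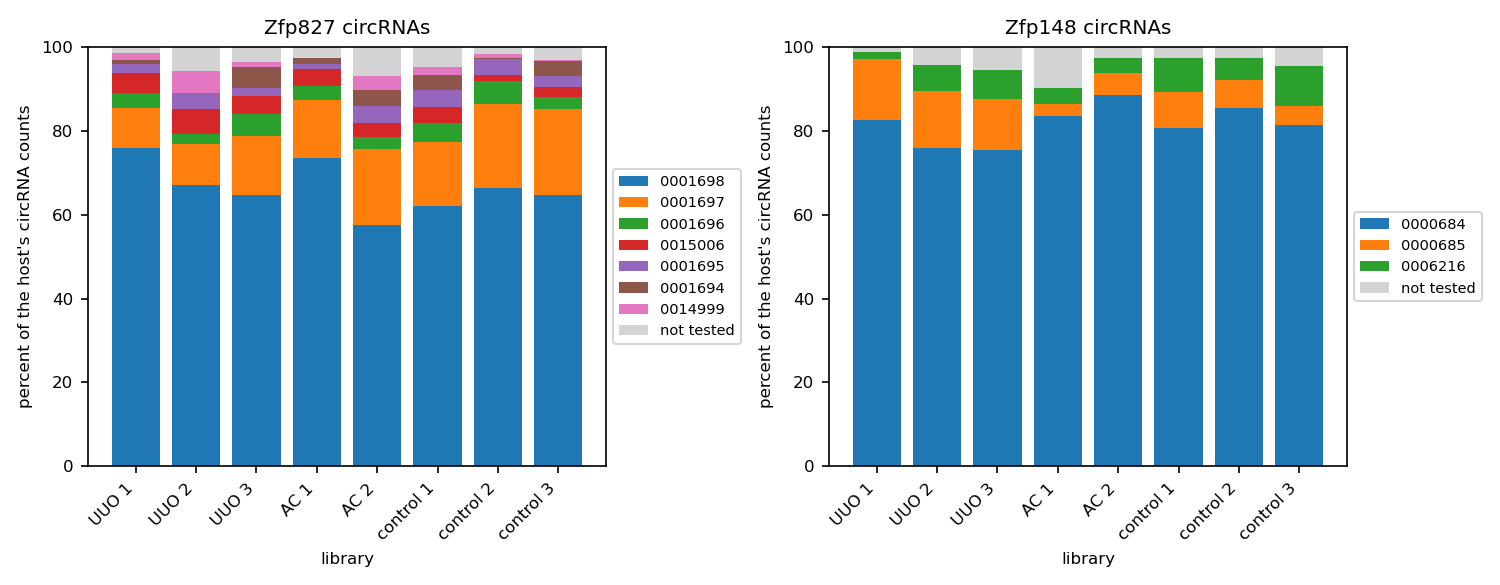
Share of each tested circRNA (colours, circBase numbers; grey, circles that were not tested) in the summed circRNA counts of Zfp827 (left) and Zfp148 (right), in percent, for each library. The second band from the bottom is narrower in UUO than in control for Zfp827 (at most 14.0% against at least 15.4%), and wider in UUO for Zfp148 (at least 12.1% against at most 8.60%).

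By class, the Zfp genes were the bulk of the members, with 75 circles of 35 hosts and 76.5% of the counts. Of their 25 tested circles, 12 had positive and 13 negative fold changes in UUO, and 9 positive and 16 negative in AC. The median log2 fold change was -0.02 in UUO and -0.16 in AC, or -0.33 and -0.46 with the deposited constants, which put the median of all tested circRNAs at -0.26 in UUO and -0.34 in AC. Zfp644, a partner of a histone methyltransferase complex, showed how far 1 library can stand apart. Its summed counts were 30, 42 and 67 in UUO, 21 and 40 in AC and 92, 2 and 67 in control. All 3 tested circles were near 0 in control replicate 2, although that library was the deepest of the 8. Of these, mmu_circ_0001382 had 15, 16 and 33 counts in UUO, 7 and 19 in AC and 25, 2 and 26 in control. The other 2, mmu_circ_0001383 and mmu_circ_0011956, had 0 counts in control replicate 2, against 16 to 36 in control replicate 1 and 3. Zfp462, involved in heterochromatin, had 5, 6 and 20 counts of mmu_circ_0001207 in UUO, 18 and 9 in AC and 7, 14 and 12 in control, with full overlap.

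The RNA-related classes were small. The 6 Zcchc hosts had 14 circles, 6 of them tested, with 4 positive and 2 negative fold changes in UUO (median log2 0.60) and 3 of each in AC (median log2 -0.13). With the deposited constants 1 of the 6 was positive in AC. Beside Zcchc8, Zcchc11 and Zcchc17 above, Zcchc7, a subunit of the nuclear polyadenylation complex that feeds the exosome, had 10, 21 and 13 counts of mmu_circ_0011632 in UUO, 8 and 14 in AC and 20, 10 and 3 in control. A second Zcchc11 circle, mmu_circ_0001239, had 9, 21 and 16 counts in UUO, 6 and 11 in AC and 15, 3 and 4 in control. For both circles UUO and AC overlapped with control. Of the 5 Zc3h hosts, 3 had a tested circle. Zc3h12b and Zc3h12c belong to the Regnase family of endoribonucleases, and Zc3h4 restrains non-coding transcription. All 3 had positive log2 fold changes in both comparisons, with medians of 0.99 in UUO and 0.79 in AC, and none passed. With the deposited constants Zc3h12c was negative in AC (-0.12). For all 3 only UUO and AC libraries reached the filter's count of 10 scaled to library size, and no control library did. The filter thus favoured a positive sign in this class, and no conclusion is drawn from it. Over its 3 circles Zc3h4 had 17, 13 and 19 summed counts in UUO, 17 and 11 in AC and 4, 18 and 23 in control. Groups overlapped, and the log2 fold change of the sum in UUO was 0.22 ± 0.55 (SE; adjusted p = 0.881, edgeR). Its only tested circle, mmu_circ_0001544, had 9, 13 and 11 counts in UUO, 10 and 7 in AC and 2, 5 and 11 in control. Unscaled counts of this circle overlapped between UUO and control. In CPM the lowest UUO library lay above the highest control library by less than the worth of 1 count, while AC and control overlapped.

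Of the transcription factor classes, Zbtb had 6 circles of 5 hosts. Zbtb20, a BTB repressor that silences alpha-fetoprotein in mouse liver, had 8, 30 and 32 summed counts in UUO, 25 and 14 in AC and 17, 28 and 25 in control. Its 2 circles were mmu_circ_0000688, with 6, 9 and 18 counts in UUO, 9 and 4 in AC and 1, 17 and 8 in control, and mmu_circ_0006298, with 2, 21 and 14 in UUO, 16 and 10 in AC and 16, 11 and 17 in control. Groups overlapped in both, and the log2 fold change of the sum in UUO was 0.02 ± 0.45 (SE). Zbtb48 (TZAP), which binds telomeric repeats, had 5, 5 and 3 counts of mmu_circ_0011465 in UUO, 8 and 0 in AC and 9, 12 and 16 in control. Both injury groups lay below control, with adjusted p = 0.573 in UUO and 0.676 in AC (edgeR). Zmiz1, a PIAS-like coactivator of Notch1, had 26, 29 and 40 summed counts in UUO, 10 and 21 in AC and 21, 21 and 29 in control, over mmu_circ_0000512 and mmu_circ_0000513. Zmym4 had 9 listed circles but only mmu_circ_0001261 was tested, with 21, 29 and 15 counts in UUO, 21 and 6 in AC and 25, 7 and 19 in control. None of the Zbtb, Zmiz or Zmym circles or hosts passed in any comparison.

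The Zeb, Zfhx and Zhx hosts had 16 circles of 6 hosts and none was abundant enough to be tested singly. Together they had 28, 21 and 37 counts in UUO, 10 and 34 in AC and 4, 8 and 19 in control. The 3 UUO libraries were above the 3 controls, by 2 counts at the closest, and AC replicate 1 fell within the control range. Scaled, the sum was 490 to 777 CPM in UUO, 236 and 992 CPM in AC and 106 to 393 CPM in control. Zeb1 gave most of these counts, with 21, 5 and 22 in UUO, 5 and 23 in AC and 3, 4 and 8 in control over its 5 circles. UUO replicate 2 and AC replicate 1 lay within the control range. The host test gave a log2 change of 1.71 ± 0.75 (SE; adjusted p = 0.208, edgeR) in UUO and 1.78 ± 0.82 (SE; adjusted p = 0.310, edgeR) in AC. The AC value rested on AC replicate 2, without which it was 0.0937 (adjusted p = 0.978, edgeR). Zfhx3, a large factor with several homeodomains, had 3, 8 and 15 counts in UUO, 1 and 9 in AC and 0, 4 and 4 in control, and Zeb2 had 3, 5 and 0 counts in UUO, 2 and 0 in AC and 0 throughout control. A count of 0 over the 3 controls allows up to 3 counts in that group, so Zeb2 circles at a low level in control would not have been detectable at this depth.

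**Figure D5:**
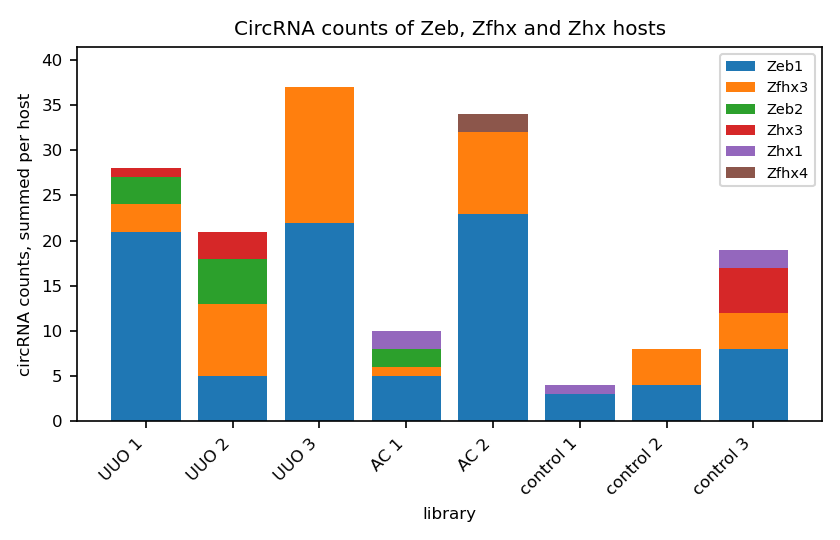
CircRNA counts (vertical axis, unscaled) of the 6 hosts with both zinc fingers and homeodomains, stacked per library. The stacks reach 28, 21 and 37 counts in UUO, 10 and 34 in AC and 4, 8 and 19 in control, most of them from Zeb1 and Zfhx3.

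Among all 142 members, few were at 0 throughout 1 group and present throughout another. None was at 0 in all controls and present in all UUO libraries (0% of members, against 0.744% of all circRNAs), and none the other way round (against 0.570%). A Zfhx3 circle (mmu_circ_0014540) had 1 and 2 counts in AC and 0 in control (0.704% of members, against 1.66%), and a Zmym4 circle (mmu_circ_0011171) 2 and 1 counts in AC and 0 in UUO (0.704%, against 1.60%). At 0 in both AC libraries but present in every control were 3 members (2.11%, against 1.85%). They were mmu_circ_0005304 of Zmym2, a component of LSD1 complexes, with 4, 3 and 4 control counts, mmu_circ_0005527 of Zfr with 1, 8 and 3, and mmu_circ_0011238 of Zcchc17 with 5, 1 and 3. The control mean was 2.09-fold above a floor of 3 counts over the AC group for Zmym2, 2.04-fold for Zfr and 1.82-fold for Zcchc17. These ratios take the few control counts as exact, so they are not lower bounds of the difference. At 0 in AC and present in every UUO library were 4 members (2.82%, against 1.73%), the same Zmym2 and Zcchc17 circles with mmu_circ_0006212 of Zfp148 and mmu_circ_0011175 of Zmym4. AC had 2 libraries, so a count of 0 throughout is easier to reach there than in the groups of 3. The floors cover only the counting error of the group at 0.

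Related genes outside the zinc finger symbols had 2 called circRNAs, both higher in UUO and in AC, and their counts stand beside the 4.35% of all tested circRNAs called in UUO and 3.33% in AC. Of 69 other C2H2 transcription factor genes, such as the Klf, Gli, Glis and Prdm families, 23 had a listed circRNA and 10 a tested one. Of their 22 tested circles 1 was higher in UUO and in AC, mmu_circ_0000943 of Glis3, with 216, 194 and 232 counts in UUO, 247 and 192 in AC and 107, 119 and 147 in control. Its log2 fold changes were 0.87 ± 0.19 (SE; adjusted p = 0.0178, edgeR) in UUO and 1.08 ± 0.21 (SE; adjusted p = 0.0114, edgeR) in AC. Of 29 genes for co-repressors and other cofactors, 18 were listed and none of their 16 tested circles passed in either comparison. The listed genes that are not co-repressors in the strict sense included Cul3, Crebbp and Ep300, and Crebbp and Ep300 were among the 8 tested hosts. Of 30 symbols for RNA-binding and RNA-surveillance genes, some of them names of the same gene, 9 were listed. Of their 6 tested circles 1 passed, mmu_circ_0004992 of Mbnl2, with 35, 35 and 27 counts in UUO, 46 and 49 in AC and 10, 12 and 17 in control. It was higher in both, with log2 fold changes of 1.42 ± 0.37 (SE; adjusted p = 0.0419, edgeR) in UUO and 2.14 ± 0.40 (SE; adjusted p = 0.00850, edgeR) in AC. The median log2 fold changes of the 3 lists were 0.41, 0.14 and 0.25 in UUO and 0.00, 0.10 and 0.18 in AC.

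Cell type markers could be followed only where they have a listed circRNA. Of 10 genes of injured or failed-repair tubule, 2 (Dcdc2a and Nfkb1) were listed, with summed levels of 4695 to 5228 CPM in UUO, 4170 and 4551 CPM in AC and 771 to 963 CPM in control. Of 6 proliferation genes 3 were listed, at 1134 to 1573 CPM in UUO, 992 and 1414 CPM in AC and 372 to 434 CPM in control. Of 6 genes taken for distal tubule 2 (Klhl3 and Trpm7) were listed, at 1518 to 2058 CPM in UUO, 1692 and 1743 CPM in AC and 3287 to 4888 CPM in control. Only circles of Klhl3 passed the test there. Trpm7 is not confined to the distal tubule, so that sum does not follow 1 cell type. Of 15 proximal tubule genes 2 were listed, at 1197 to 1649 CPM in UUO, 1313 and 1555 CPM in AC and 1622 to 3435 CPM in control. Podocyte and endothelial markers had 1 and 2 listed genes with no tested circle. Of 8 lymphocyte genes only Ikzf1 was listed, with counts in UUO replicate 1 and 2 alone. No marker of the loop of Henle (4 genes), the collecting duct (7), fibroblasts and pericytes (10) or macrophages (7) had a listed circRNA. The part of such shifts in the values of the Zfp827, Zfp276 and Zeb1 circles was not tested.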

How the data were processed

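The authors deposited a table of whole-number counts per circRNA and library, and a second signal table. In that deposited signal table every value was the count divided by 1 constant per library (8718 to 11941); what the constant stands for is not stated. The submitters' processing notes name HISAT2, StringTie and mm9 without versions or roles. Which program called circRNAs, with which minimum of reads and which annotation, is not given in these sources. No coordinates or sequences are printed, because circle junctions are not in the tables used here and the annotation at hand is of another build.

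Counts were tested as deposited over all 1471 circRNAs left by the default filter of edgeR 4.0.16 (R 4.3.3; a count of 10 scaled to library size, a total of 15). Groups were taken from the labels. TMM factors, 1 quasi-likelihood fit of the 3 groups and Benjamini-Hochberg adjustment with a threshold of 0.05 were used; standard errors were derived as |log2 fold change| / √F. Host sums were fitted in the same way over 1186 hosts. CPM of host sums in the host test is scaled to the TMM library size of the tested hosts, and all other CPM to that of the tested circRNAs. Host CPM and circle CPM are therefore on different scales. Shares within hosts were tested with edgeR's differential usage test. DESeq2 1.42.0, limma 3.58.1 (voom) and other settings served as alternatives. The pipeline was checked on simulated data. Libraries of a group differed by more than counting noise (chi-square per degree of freedom 3.00 to 4.72), so none was merged.

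Named circRNAs were those past a threshold, the 5 with the lowest p in each direction against control for UUO and for AC, the 10 with the highest mean level, those at 0 throughout 1 group and present throughout another, and the tested circles of a list of known hosts. Hosts with low unadjusted p were named after their values had been seen. Members and gene lists were chosen with earlier results of these data known.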

Additional observations from a re-analysis of the deposited data

How the results depend on the processing

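Each of 45 named results was run under the alternative settings, 694 runs in all. No value past the threshold reversed its direction, while the members' medians changed sign as given below. A call was lost in 20 runs and gained in 24, and where the text names no cause, the cause was not tested. The losses were those of mmu_circ_0001697 of Zfp827 in UUO (6 of its 16 runs) and, with both injuries, of the Zfp276 circle (9 of 15) and host (5 of 15). No other named result had a call to lose, so the calls were fragile. Correlations of deviations between libraries of equal replicate number ran between -0.113 and 0.042, which showed no pairing. They cannot exclude a pairing or a shared batch, since the 2 AC libraries gave mirrored values, such as 0.042 and -0.042 with UUO replicate 1. With the replicate number as a block, 0 member circRNAs were called in UUO (Zfp827 mmu_circ_0001697, adjusted p = 0.0769, edgeR) and 0 circRNAs and 0 hosts with both injuries together, and calls over the whole table were 12, 5 and 30 for UUO, AC and both injuries, against 64, 49 and 77.

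DESeq2 called 103, 70, 2 and 124 circRNAs over the whole table in UUO against control, AC against control, UUO against AC and both injuries. Of the members it called 2 circRNAs in AC, 2 with both injuries and 1 host in UUO. With limma-voom the members' median log2 fold change was 0.647 in UUO and 0.0181 in AC, with 1 member host called in UUO and 0 with both injuries. With the deposited constant as library size, the median of all tested circRNAs shifted to -0.26 in UUO and -0.34 in AC, the members' to -0.0537 and -0.409, calls over the table were 37 and 29, and 2 member circRNAs and 2 hosts passed with both injuries. Without a filter, 1 member host passed in UUO (Zfp609) and 2 in AC and with both injuries (Zfp276 and Zfp609). In the main fit the Zfp609 host had a log2 change of 1.05 ± 0.48 (SE; adjusted p = 0.213, edgeR) with both injuries. Also without a filter, 3 member circRNAs passed with both injuries and 4 of all circRNAs in UUO against AC, and the members' median was -0.00207 in AC. A stricter filter (a count of 20) gave a members' median of -0.28 in UUO and 0 members with both injuries. Fitted on the compared groups alone, 2 member circRNAs (median -0.0867) and 1 host passed in UUO, and 14 circRNAs of the table in AC and 1 in UUO against AC. Counting only rows past the filter, the control share of members was 3.09%.

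Leaving out 1 library at a time, member calls ranged over 0 to 1 in UUO, 0 to 1 in AC and 0 to 2 with both injuries, and host calls over 0 to 2, 0 to 3 and 0 to 4. Host calls were highest without control replicate 2, when Zfp609 and Zkscan1 passed in UUO and Zfp292, Zfp609 and Zfx in AC. The members' median ran from -0.0829 (without UUO replicate 3) to 0.27 in UUO and from -0.35 (without AC replicate 2) to 0.23 (without control replicate 1) in AC. Calls over the table ran from 10 (without UUO replicate 2) to 75 in UUO, from 11 (without control replicate 3) to 38 in AC, from 0 to 1 in UUO against AC and from 42 to 75 with both injuries. Where AC is left with 1 library, that library is assumed to vary like the other groups. At this depth 3 counts were worth 56.6 to 87.5 CPM.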
